A study of Mus musculus with 12 samples.

Results

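The 10 genes described here belong to fibroblast growth factor (FGF) signalling and were measured in R1 mouse embryonic stem cells after knockdown of Krr1, whose product helps to assemble small ribosomal subunits. They are 3 ligands (Fgf4, Fgf5, Fgf15), 1 receptor (Fgfr1), 2 phosphatases (Dusp4, Dusp6), 2 Sprouty inhibitors (Spry2, Spry4) and 2 ETS transcription factors (Etv4, Etv5). They were chosen by symbol, and all 10 were found among the 23420 genes of both count tables. The cells grew on gelatin in serum medium with LIF and were transfected for 48 h, per the labels with 3 different control siRNAs or 3 different siRNAs against Krr1. The controls are named siGFP, siNC and Lipo, and the name Lipo states no siRNA. The knockdown lysates are called siKrr1 A, C and D after the column letters, because the titles number them and do not use the letters. RNA-seq and ribosome profiling were made from parts of the same lysates, the latter reading the mRNA fragments that ribosomes shield (footprints), so that there are 3 libraries per condition and assay and 12 in all.

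FGFs are secreted ligands that bind receptor tyrosine kinases together with heparan sulfate. The receptor signals through an adaptor, Ras and the kinases Raf, MEK and ERK, and ERK activity switches on genes such as the ETS factors, and with them inhibitors that act back on the pathway: dual-specificity phosphatases that remove phosphate from ERK, and Sprouty proteins that act upstream of it. In mouse embryonic stem cells Fgf4 is the main ligand made by the cells themselves, and FGF and ERK signalling is known for moving cells out of the naive pluripotent state.

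RefSeq promoter windows (assembly GRCm38.p6, the build also called mm10) were given for 5 of the 10 members, Fgf4, Fgf5, Dusp6, Spry2 and Etv5. The 250 bases before the gene start are shown for Fgf4, a ligand whose footprints fell, and for Dusp6, a feedback phosphatase whose mean was higher after knockdown. They are at chr7:144861136-144861385 and chr10:99262981-99263230, both on the plus strand. Capitals mark the TATA-type run TATATA and the 4-base core of ETS sites, GGAA or TTCC on the other strand.
Fgf4: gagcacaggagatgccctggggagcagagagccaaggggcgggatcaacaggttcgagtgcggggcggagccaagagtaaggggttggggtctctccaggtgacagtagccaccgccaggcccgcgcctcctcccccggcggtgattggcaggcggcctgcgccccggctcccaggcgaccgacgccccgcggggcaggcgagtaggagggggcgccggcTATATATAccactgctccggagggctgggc
Dusp6: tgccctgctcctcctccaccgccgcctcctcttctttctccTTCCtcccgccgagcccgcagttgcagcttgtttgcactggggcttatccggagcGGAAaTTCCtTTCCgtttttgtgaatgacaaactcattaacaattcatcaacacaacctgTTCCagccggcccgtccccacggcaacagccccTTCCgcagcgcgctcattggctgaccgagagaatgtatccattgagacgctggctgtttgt
The Fgf4 stretch held 2 overlapping TATATA matches, 30 and 28 bases before the gene start, and no ETS core, and the Dusp6 stretch held the core on both strands and no TATATA. Over windows of 300 bases (250 before and 50 after the start), TATATA occurred in 5.67% and the ETS core in 96.0% of 32851 promoters. Further sequences were searched on both strands and matched none of the 6 windows of these 5 members. They were the longer ETS sequence CCGGAAGT (3.89% of promoters), the AP-1 sequence TGANTCA (7.81%) and the cyclic AMP response element TGACGTCA (1.79%). A single fixed form of the serum response element (0.0639%) was also among them. Other forms of that element were not searched, so their presence in these windows was not tested. TATATA, the ETS core, CCAAT and the GC box GGGCGG were added to the search after the sequences had been read. CCAAT matched 4 of the 6 windows, in Dusp6, Etv5 and Fgf4, and 37.4% of all promoters. GGGCGG matched 3, in Etv5, Fgf4 and Fgf5, and 35.7% of all promoters. A match or its absence describes only these letters in this window.

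Counts on genes ran from 31318772 to 39670139 per RNA library and from 21615934 to 28911254 per footprint library. Levels are given as CPM, gene counts scaled to library size with TMM factors, and log2 fold changes compare knockdown with control. Relative to the mean of the controls, siKrr1 A, C and D kept 21.7%, 37.3% and 41.5% of Krr1 RNA and 18.9%, 37.5% and 31.4% of its footprints. The labels do not state whether samples were separate cultures, so p-values measure only the spread between these samples. CPM is not scaled to gene length, so levels are compared within a gene and not between genes. In such bulk samples, fewer cells of a type and less RNA per cell cannot be told apart. Summed RNA of 7 stem cell markers (Pou5f1, Sox2, Nanog, Zfp42, Esrrb, Sall4, Utf1) was 6569 to 6585 CPM in controls and 5116 to 6174 in knockdown libraries. Nanog, Zfp42 and Esrrb fell in RNA (edgeR adjusted p under 0.05), where 2.11% of all genes fell. Markers of feeder cells summed to 2.94 to 4.20 CPM in controls and 2.03 to 3.85 in knockdown, with Col3a1, Postn and Lum at 0 in every RNA library, and those of extra-embryonic endoderm to 4.51 to 5.56 and 4.23 to 5.04.

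In short, 2 ligands, Fgf4 and Fgf15, and the inhibitor Spry4 passed the test downward in at least 1 assay, and Dusp4 passed it upward in footprints. Fgfr1, Dusp6, Spry2, Etv4 and Etv5 passed it in neither assay, and Fgf5 did not pass it in RNA and was not tested in footprints. Of 10 members tested in RNA, 2 fell and 0 rose (quasi-likelihood test of edgeR, with p adjusted over all genes by Benjamini-Hochberg and calls under 0.05). Over all 14038 genes tested in RNA, 2.11% fell, 2.69% rose and 4.8% were called in either direction. Of 9 members tested in footprints, 2 fell and 1 rose, and over all 13287 genes 2.68% fell, 3.39% rose and 6.07% were called. At an unadjusted p under 0.05 there were 6 members in RNA, 3 higher and 3 lower, where the share of all genes was 20.9%. In footprints there were 7, 4 higher and 3 lower, where the share was 22.5%. The median log2 fold change of the members was -0.05 in RNA and -0.02 in footprints, against 0.00 and 0.01 over all genes tested. Without single libraries the number called ran from 0 to 5 in each assay: it was 0 in RNA without siGFP, siNC, Lipo, siKrr1 A or siKrr1 D, and 5 without siKrr1 C. The share of all genes called moved the same way, from 0.8% (without Lipo) to 2.73% (without siKrr1 D) in those 5 fits and to 9.09% without siKrr1 C. In footprints it was 0 without Lipo, 1 without siNC, 2 without siGFP, siKrr1 A or siKrr1 D, and 5 without siKrr1 C, where the share of all genes ran from 0.976% without Lipo to 9.91% without siKrr1 C.

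**Figure D1:**
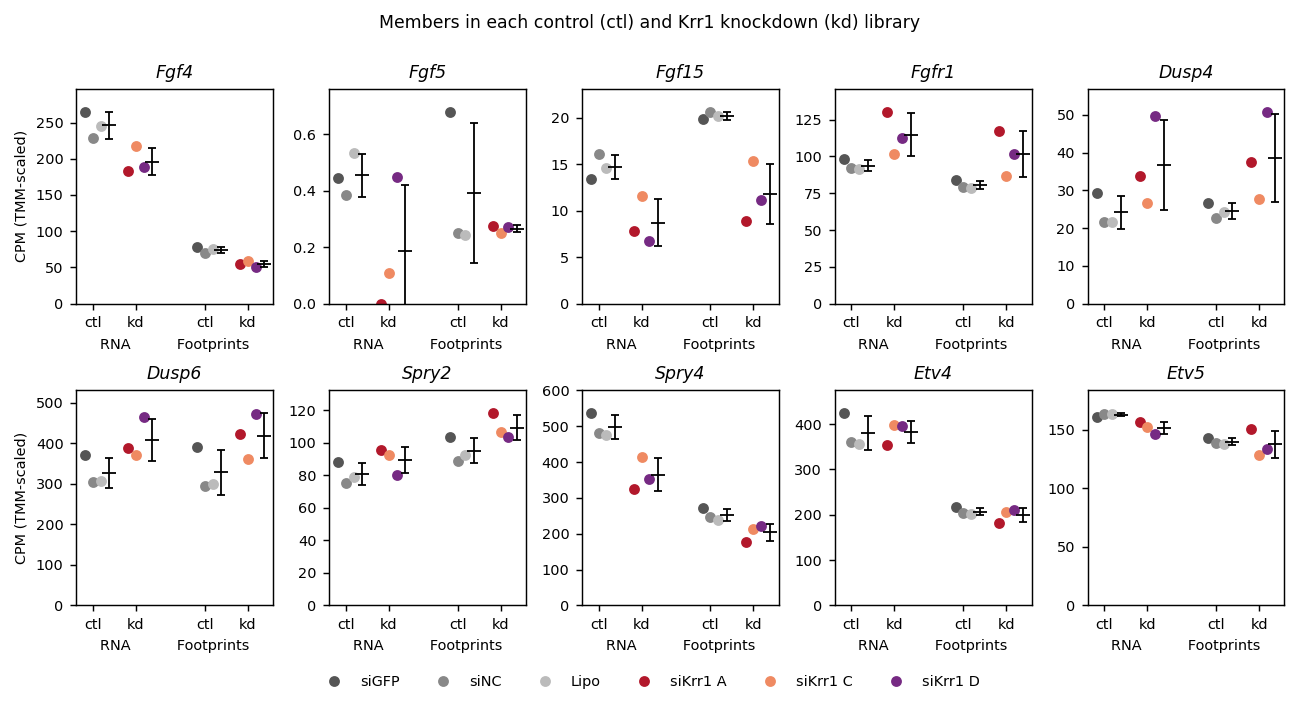
CPM of the 10 members in each library, on linear axes that start at 0, with 3 control (ctl) and 3 knockdown (kd) points per assay; the bar beside each group is the mean and SD (n = 3), and the lower arm of Fgf5 knockdown RNA runs below the axis. Fgf4, Fgf15 and Spry4 knockdown points all lie below the control points in both assays, and Fgfr1 points all lie above.

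Fgf4 (chromosome 7, 144861386 to 144865245) is the ligand that embryonic stem cells make for their own receptors. Its RNA was 265, 228 and 245 CPM in siGFP, siNC and Lipo and 183, 218 and 188 CPM in siKrr1 A, C and D. Its footprints were 78.3, 70.3 and 75.4 CPM in the controls and 55.1, 58.5 and 50.9 CPM in siKrr1 A, C and D. All 3 knockdown libraries were below all 3 controls in each assay. Footprints fell, from 74.6 ± 4.01 to 54.8 ± 3.78 CPM (SD, n = 3), with a log2 fold change of -0.45 ± 0.07 (SE; edgeR adjusted p = 0.00804). RNA was at 246 ± 18.4 and 196 ± 19.0 CPM. Its log2 fold change of -0.33 ± 0.09 did not pass the threshold (edgeR adjusted p = 0.0551). DESeq2 called the RNA (adjusted p = 0.0173), as did edgeR without the low-count filter (adjusted p = 0.0248). The footprint call held without each single library other than Lipo, where the edgeR adjusted p was 0.0602 and the log2 fold change -0.44.

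Fgf15 (chromosome 7, 144896532 to 144900953) encodes the mouse counterpart of FGF19, an endocrine FGF of the adult gut. Its RNA was 13.4, 16.1 and 14.7 CPM in siGFP, siNC and Lipo and 7.84, 11.6 and 6.73 CPM in siKrr1 A, C and D. Its footprints were 19.8, 20.7 and 20.2 CPM in the controls and 8.95, 15.4 and 11.1 CPM in siKrr1 A, C and D. The groups did not overlap, and siKrr1 C was the knockdown lysate nearest to the controls in both assays. Fgf15 fell in RNA by 0.76 ± 0.18 (SE; edgeR adjusted p = 0.0388) and in footprints by 0.78 ± 0.16 (edgeR adjusted p = 0.0192) on the log2 scale. The RNA call was lost without any 1 library other than siKrr1 C, with edgeR adjusted p from 0.0938 to 0.142. The footprint call held without siKrr1 A or C and was lost without each of the others (0.0580 to 0.0892). Without siKrr1 C the log2 fold changes were -1.01 in both assays. RefSeq places the noncoding gene Gm26793 over Fgf15, and with the strand setting of the counting unknown the reads of the pair cannot be told apart.

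Marker genes of the primed epiblast, the state that follows naive pluripotency, were read beside the ligands. In RNA, 3 of 7 (Otx2, Dnmt3b and Lef1) rose and 0 fell (edgeR adjusted p under 0.05), where 2.69% of all genes rose. The list summed to 121 to 136 CPM in controls and 165 to 181 in knockdown libraries. Dnmt3b made up most of that sum (102 ± 7.79 CPM in control and 130 ± 4.11 in knockdown RNA), while Lef1 went from 2.16 ± 0.942 to 5.80 ± 2.08 CPM. In footprints Otx2 and Lef1 rose and Sox3 fell, where 3.39% of all genes rose and 2.68% fell. Of 6 neural markers, Nes and Neurod1 rose and Tubb3 fell in both assays, where 4.8% of all genes were called in RNA and 6.07% in footprints. The neural sum was 152 to 164 CPM in control and 103 to 124 CPM in knockdown RNA. Tubb3 made up most of that sum (132 ± 6.41 CPM in control and 74.9 ± 10.03 in knockdown RNA), while Nes went from 14.7 ± 0.997 to 26.6 ± 6.59 CPM. The part of these shifts in the Fgf values was not tested.

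Fgf5 (chromosome 5, 98254184 to 98277033), an early marker of the primed epiblast, was close to the detection limit. RNA counts of siGFP, siNC and Lipo were 17, 15 and 19, and those of siKrr1 A, C and D were 0, 4 and 17. A count of 0 in siKrr1 A allows up to 3 counts, or 0.0958 CPM, which covers counting error only. Footprint counts were 15, 7 and 6 for siGFP, siNC and Lipo and 6, 6 and 8 for siKrr1 A, C and D, and the gene did not pass the count filter there. The knockdown libraries spanned from below the controls to within their range in RNA, and the log2 fold change was -1.21 (95% interval -2.75 to 0.32; edgeR adjusted p = 0.358). Without siKrr1 D it was -2.89 (edgeR adjusted p = 0.0761). The knockdown lysates differed among themselves, and Fgf5 was not called in any fit.

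Fgf4 and Fgf15 are neighbours: 31.3 kb separate the end of Fgf4 from the start of Fgf15. RefSeq lists 14 genes within 300 kb of the Fgf4 start, of which 8 were in the count tables and 7 were tested in each assay. Fgf15 in both assays and Fgf4 in footprints were the ones called with edgeR. Fgf3, a further ligand gene on the other side of Fgf4, was at 2.18 ± 0.451 CPM in control and 1.65 ± 0.268 in knockdown RNA, a log2 fold change of -0.40 ± 0.25 (edgeR adjusted p = 0.392). The cell cycle gene Ccnd1, on the far side of Fgf15, was at 417 ± 9.16 and 407 ± 43.9 CPM in RNA, a log2 fold change of -0.03 ± 0.08 (edgeR adjusted p = 0.858). Oraov1 (LTO1 in RefSeq), which starts between Fgf15 and Ccnd1 and overlaps the latter, stood at 0.07 ± 0.10 (edgeR adjusted p = 0.716). Fadd and the chloride channel gene Ano1, the most distant on the Fgf3 side, stood at 0.07 ± 0.12 and -1.23 ± 0.39 in RNA, Ano1 from a control level of 1.65 CPM (edgeR adjusted p = 0.800 and 0.0954).

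**Figure D2:**
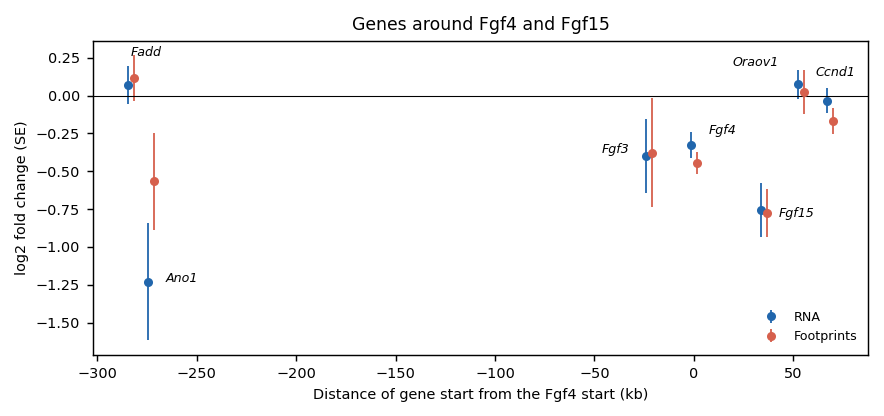
Log2 fold change (knockdown over control, bars are SE) of the 7 tested genes within 300 kb of the Fgf4 start, against the distance of each gene start from that of Fgf4 in kb, for RNA (blue) and footprints (red). Fgf15 stands at -0.76 and -0.78, Fgf4 at -0.33 and -0.45, and Oraov1 and Ccnd1 beyond Fgf15 lie between -0.17 and 0.07.

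Fgfr1 (chromosome 8, 25518759 to 25575718) encodes the main FGF receptor of embryonic stem cells. Its RNA was 98.1, 92.1 and 91.2 CPM in siGFP, siNC and Lipo and 130, 102 and 112 CPM in siKrr1 A, C and D. Its footprints were 83.7, 79.1 and 78.8 CPM in the controls and 118, 86.5 and 102 CPM in siKrr1 A, C and D. Every knockdown library lay above every control, siKrr1 C by the least, but the change did not pass the threshold in either assay in the main edgeR fits. In RNA it amounted to 0.29 ± 0.09 (SE) on the log2 scale (edgeR adjusted p = 0.100) and to 0.34 ± 0.10 in footprints (edgeR adjusted p = 0.0641). Without siKrr1 C it passed in both, at 0.38 (edgeR adjusted p = 0.0243) and 0.44 (0.00628). DESeq2 called the footprints (adjusted p = 0.0174) and not the RNA (0.0576). So did edgeR without the low-count filter (adjusted p = 0.00766 and 0.0628). RefSeq noncoding genes overlap Fgfr1, as one does Dusp6.

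Dusp4 (chromosome 8, 34807610 to 34819894) and Dusp6 (chromosome 10, 99263231 to 99267489) encode phosphatases of ERK, Dusp4 in the nucleus and Dusp6 in the cytoplasm. Dusp4 RNA was 29.3, 21.7 and 21.6 CPM in siGFP, siNC and Lipo and 33.9, 26.6 and 49.8 CPM in siKrr1 A, C and D. Its footprints were 26.7, 22.7 and 24.2 CPM in the controls and 37.5, 27.7 and 50.9 CPM in siKrr1 A, C and D. The groups did not overlap in footprints, while in RNA siKrr1 C lay below siGFP, and siKrr1 D was the highest library in both assays. Dusp4 rose in footprints with a log2 fold change of 0.66 ± 0.17 (SE), just inside the threshold (edgeR adjusted p = 0.0499). In RNA it was at 0.60 ± 0.20 (edgeR adjusted p = 0.111). DESeq2 called Dusp4 in footprints (adjusted p = 0.00144) and not in RNA (0.247), and edgeR without the low-count filter called both (adjusted p = 0.000421 and 0.0291). Without siKrr1 D the log2 fold change was 0.41 in footprints (edgeR adjusted p = 0.115) and 0.33 in RNA (0.282). The footprint call held only without siKrr1 C among the fits that leave out 1 library.

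Dusp6 RNA was 370, 304 and 307 CPM in siGFP, siNC and Lipo and 387, 370 and 465 CPM in siKrr1 A, C and D. Its footprints were 391, 294 and 299 CPM in the controls and 423, 362 and 472 CPM in siKrr1 A, C and D. The control siGFP was level with siKrr1 C in RNA and above it in footprints, and siKrr1 D was again the highest. Knockdown stood above control by 0.32 ± 0.10 (SE, log2) in RNA (95% interval 0.09 to 0.55; edgeR adjusted p = 0.106) and 0.35 ± 0.12 in footprints (95% interval 0.10 to 0.61; edgeR adjusted p = 0.0974). DESeq2 called both (adjusted p = 0.0469 and 0.0226), as did edgeR without the low-count filter (adjusted p = 0.0490 and 0.00458). With the filter, edgeR called the footprints without siGFP (adjusted p = 0.0460) or without siKrr1 C (0.0330).

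Spry4 (chromosome 18, 38586247 to 38601347) and Spry2 (chromosome 14, 105891947 to 105896819) encode Sprouty inhibitors of receptor tyrosine kinase signalling. Spry4 RNA was 536, 481 and 475 CPM in siGFP, siNC and Lipo and 325, 415 and 354 CPM in siKrr1 A, C and D. Its footprints were 271, 246 and 239 CPM in the controls and 177, 212 and 223 CPM in siKrr1 A, C and D. All knockdown libraries were below all controls, and siKrr1 A was the lowest in both assays. Spry4 fell in RNA by 0.45 ± 0.09 (SE) on the log2 scale, from 497 ± 33.7 to 365 ± 45.9 CPM (SD, n = 3; edgeR adjusted p = 0.0249). In footprints it was at -0.30 ± 0.08 and not called (edgeR adjusted p = 0.0592). DESeq2 called the footprints (adjusted p = 0.0110), as did edgeR without the low-count filter (adjusted p = 0.00422). The RNA call was lost without each library other than siKrr1 C (edgeR adjusted p = 0.0652 to 0.114), with log2 fold changes of -0.37 to -0.48.

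Spry2 was not called in either assay. Its RNA was 88.2, 75.3 and 79.2 CPM in siGFP, siNC and Lipo and 95.6, 92.5 and 80.3 CPM in siKrr1 A, C and D. Its footprints were 104, 89.2 and 92.8 CPM in the controls and 118, 107 and 104 CPM in siKrr1 A, C and D. The groups overlapped in both assays. Knockdown over control was 0.14 ± 0.09 (SE, log2) in RNA (95% interval -0.05 to 0.34; edgeR adjusted p = 0.402) and 0.20 ± 0.08 in footprints (95% interval 0.03 to 0.37; edgeR adjusted p = 0.146). The footprint interval of Spry2 lies above 0 and that of Spry4 (-0.49 to -0.12) below it.

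Etv4 (chromosome 11, 101769747 to 101785310) and Etv5 (chromosome 16, 22381313 to 22439570) encode ETS factors whose transcription follows ERK activity in many tissues. Etv4 RNA was 424, 360 and 357 CPM in siGFP, siNC and Lipo and 354, 399 and 395 CPM in siKrr1 A, C and D. Of these siKrr1 A lay just below the lowest control and the others within the control range, and the log2 fold change was 0.01 (95% interval -0.18 to 0.20; edgeR adjusted p = 0.963). Etv4 footprints were 217, 203 and 202 CPM in the controls and 183, 206 and 211 CPM in siKrr1 A, C and D. Again siKrr1 A alone lay below the controls, and the log2 fold change was -0.05 (95% interval -0.19 to 0.09; edgeR adjusted p = 0.701). Etv5 RNA was 161, 163 and 163 CPM in the controls and 157, 152 and 146 CPM in siKrr1 A, C and D. These libraries lay just below the controls, with a log2 fold change of -0.10 (95% interval -0.25 to 0.04; edgeR adjusted p = 0.420). Its footprints were 143, 138 and 138 CPM in the controls and 151, 129 and 134 CPM in siKrr1 A, C and D. They overlapped, at -0.02 (95% interval -0.17 to 0.12; edgeR adjusted p = 0.878). These intervals reach at most 0.25 from 0 in either gene.

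**Figure D3:**
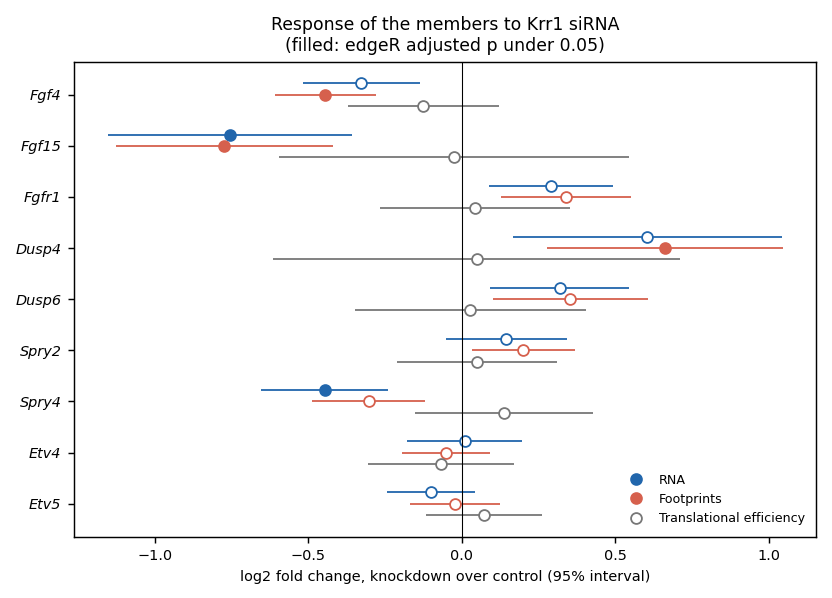
Log2 fold change of 9 members (knockdown over control, lines are 95% intervals) in RNA, footprints and translational efficiency, with filled points for edgeR adjusted p under 0.05; Fgf5 is left out because it was not tested in footprints. Fgf15 in both assays, Fgf4 and Dusp4 in footprints and Spry4 in RNA are filled, and the Etv4 and Etv5 points lie between -0.10 and 0.07.

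Of the 10 members, the knockdown libraries lay wholly above the controls for 2 in RNA (Fgfr1 and Dusp6) and wholly below for 4 (Fgf4, Fgf15, Spry4, Etv5), and over all genes tested 27% did not overlap in RNA. In footprints it was 2 above (Fgfr1 and Dusp4) and 3 below (Fgf4, Fgf15, Spry4), where 27.9% of all genes did not overlap. The Dusp6 separation in RNA was lost with CPM scaled to the total count alone, and Spry2 footprints then separated upward. Among the knockdown lysates, siKrr1 C lay nearest to the control mean for Fgf4, Fgf15, Fgfr1, Dusp4 and Dusp6 in both assays. It was at 88.5% of the control mean for Fgf4 RNA, 78.5% for Fgf15 RNA, 108% for Fgfr1 RNA, 110% for Dusp4 RNA and 113% for Dusp6 RNA. The most distant lysate differed from gene to gene: Fgfr1 and Spry4 RNA lay farthest in siKrr1 A (139% and 65.4%), and Dusp4 and Dusp6 RNA in siKrr1 D (206% and 142%). Residual Krr1 rose in the order A, C, D in RNA and A, D, C in footprints. Without siKrr1 A, the log2 fold change was -0.37 for Spry4 RNA, -0.45 for Fgf4 footprints and -0.69 and -0.62 for Fgf15 RNA and footprints, and the edgeR calls of Fgf4 and Fgf15 footprints held (0.00858 and 0.0191).

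**Figure D4:**
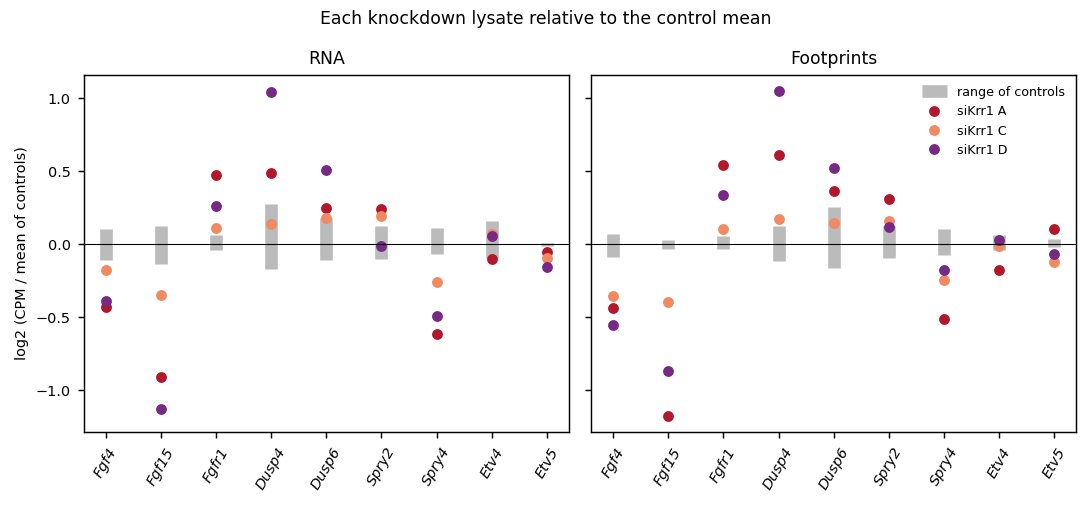
Log2 ratio of each knockdown lysate to the control mean for 9 members in RNA and footprints (Fgf5 is left out because siKrr1 A had 0 counts), with grey bars for the range of the 3 controls. The siKrr1 D point of Dusp4 stands at 1.04 in RNA and 1.05 in footprints, and the siKrr1 C points of Fgf4, Fgf15, Fgfr1, Dusp4 and Dusp6 are the nearest to 0.

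No member was called for a difference between its footprint and RNA response. The footprint change over the RNA change (translational efficiency, the interaction of assay and condition in 1 edgeR model) was called for 0 of 10 members, with 0 at an unadjusted p under 0.05. Over all 14236 genes 0% were called and 2.41% (343 genes) had an unadjusted p under 0.05, and DESeq2 called 2 genes, none of them a member. The largest member values were -0.13 for Fgf4 (95% interval -0.37 to 0.12) and 0.14 for Spry4 (-0.15 to 0.43), leaving aside the sparse Fgf5 (0.69, interval -1.41 to 2.79). For Dusp4 the interval ran from -0.62 to 0.71, the widest after that of Fgf5 in this model, which did not pair the assays by lysate. With the lysate as a block, the Dusp4 interval was -0.17 to 0.25, that of Fgf4 -0.28 to 0.02 and that of Spry4 -0.02 to 0.29. Over all genes, 965 then had an unadjusted p under 0.05. The ratio of footprint CPM to RNA CPM in controls ranged from 0.304 to 1.38 among the 9 members other than Fgf5. In control lysates it was 0.304 ± 0.00727 (SD, n = 3) for Fgf4, higher than for 6.55% of 13109 genes, and 0.507 ± 0.00333 for Spry4 and 0.547 ± 0.0306 for Etv4. It was 1.18 ± 0.00649 for Spry2 and 1.38 ± 0.0948 for Fgf15, above 77.1% of those genes. The ratio can depend on how much of an mRNA is untranslated, if RNA reads were counted over the whole transcript. The annotation used for counting is not given, and this was not tested. In knockdown lysates it was 0.302, 0.268 and 0.271 for Fgf4 in siKrr1 A, C and D. For Spry4 it was 0.544, 0.512 and 0.630, all above the controls. Over all genes, 12.2% did not overlap in this ratio.

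Other genes of the pathway were read from 8 lists of 99 symbols, of which 98 were in the tables and 81 were tested in each assay. In RNA 3 rose and 0 fell, where 4.8% of all genes were called, and in footprints 5 rose and 3 fell, where 6.07% were called (edgeR adjusted p under 0.05). The median log2 fold change was 0.02 in RNA and 0.06 in footprints, against 0.00 and 0.01 over all genes. Without Lipo, siNC or siGFP 0 were called in RNA, and 0, 2 and 2 in footprints, while without siKrr1 C there were 8 and 13, where 9.09% and 9.91% of all genes were called.

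Of the receptor and heparan sulfate lists, the genes called with edgeR rose. Fgfbp1, a secreted protein that binds FGFs and frees them from the matrix, was at 30.8, 33.2 and 36.5 CPM in siGFP, siNC and Lipo RNA and 119, 52.0 and 68.1 CPM in siKrr1 A, C and D. All knockdown libraries were above the controls, siKrr1 A the most. Its log2 fold change was 1.25 ± 0.23 (SE) in RNA and 1.17 ± 0.20 in footprints (edgeR adjusted p = 0.0164 and 0.00832). Sdc4, a heparan sulfate proteoglycan of the cell surface, rose by 1.00 ± 0.21 in RNA and 0.99 ± 0.22 in footprints (edgeR adjusted p = 0.0243 and 0.0260), from 122 to 361, 182 and 189 CPM in RNA of siKrr1 A, C and D. Fgfrl1, an FGF receptor without a kinase domain, rose in RNA by 0.49 ± 0.12 (edgeR adjusted p = 0.0395), from 10.5 ± 1.11 to 14.8 ± 0.303 CPM. Fgfr2 rose in footprints by 0.99 ± 0.21, from 1.77 ± 0.0826 to 3.53 ± 0.594 CPM (edgeR adjusted p = 0.0226), and was named after its values were seen. The receptor list had 2 genes up of 6 tested in RNA and 2 of 7 in footprints, with medians of 0.66 and 0.71, and the heparan sulfate list 1 of 11 in each, where 2.69% of all genes rose in RNA and 3.39% in footprints. Without Lipo, siNC or siGFP neither list had a call in RNA. Among 6 other ligands tested in RNA and 5 in footprints 0 were called with edgeR, where 4.8% and 6.07% of all genes were called. At an unadjusted p under 0.05, 1 and 2 were lower, where the share of all genes was 20.9% and 22.5%. DESeq2, run without the count filter, called 1 of 14 ligands in RNA and 1 of 13 in footprints, each of them lower. It called 8.61% and 9.04% of all genes. Of the other ligands, Fgf17 stood at -0.47 ± 0.15 and -0.35 ± 0.09 (edgeR adjusted p = 0.101 and 0.0518) and Fgf10 at -0.25 and -0.10 in RNA and footprints. The homologous factors Fgf13 (0.02) and Fgf11 (0.14) were not called in RNA, and none had an unadjusted p under 0.05. Each of these calls was lost without at least 1 library, with a highest edgeR adjusted p of 0.0582 for Fgfbp1 footprints (without siGFP) and 0.192 for Fgfrl1 RNA (without Lipo).

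None of 15 adaptor and Ras genes and none of 11 genes of the Raf, MEK and ERK cascade was called in either assay with edgeR. Over all genes 4.8% were called in RNA and 6.07% in footprints, so few calls would come in lists of this size at that share. The medians were -0.05 and -0.02 in RNA. At an unadjusted p under 0.05 the 2 lists had 1 and 2 genes in RNA and 2 and 1 in footprints. The share of all genes was 20.9% in RNA and 22.5% in footprints. DESeq2 called 1 adaptor gene, in footprints, where it called 9.04% of all genes. The docking protein gene Gab1 stood at -0.05 and Nras at 0.04 in RNA.

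Of 12 other feedback inhibitors none was called in either assay with edgeR, where 4.8% of all genes were called in RNA and 6.07% in footprints. The medians were 0.06 in RNA and 0.12 in footprints. There were 2 in each assay at an unadjusted p under 0.05, where the share of all genes was 20.9% in RNA and 22.5% in footprints. DESeq2 called 1, in RNA, where it called 8.61% of all genes. Dusp9, a phosphatase of ERK, stood at 0.04 ± 0.09 in RNA (151 ± 16.7 and 155 ± 12.1 CPM) and the Ras pathway inhibitor Spred1 at 0.15 ± 0.11. Among 18 other ERK targets and ETS genes 0 were called in RNA with edgeR, and 2 rose and 3 fell in footprints. In RNA 6 had an unadjusted p under 0.05, where the share of all genes was 20.9%. DESeq2 called 4 up and 2 down of 21 in RNA, where it called 8.61% of all genes. In footprints DESeq2 called 1 up and 3 down of 21, where it called 9.04% of all genes. Fosl1, a subunit of AP-1, rose in footprints by 1.37 ± 0.28, from 2.64 ± 0.792 to 6.87 ± 2.37 CPM, and Phlda1 rose by 0.70 ± 0.17 (edgeR adjusted p = 0.0188 and 0.0386). The ETS factor Ets2 fell in footprints by 0.42 ± 0.08, Myc by 0.26 ± 0.06 and the ETS repressor Erf by 0.24 ± 0.05 (edgeR adjusted p = 0.0139, 0.0282 and 0.0282). Myc footprints were 375, 332 and 335 CPM in siGFP, siNC and Lipo and 287, 290 and 294 CPM in siKrr1 A, C and D. All 5 calls were in footprints, where 6.07% of all genes were called, and all were lost without Lipo (highest edgeR adjusted p from 0.0910 for Ets2 to 0.170 for Phlda1, both in that fit).

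**Figure D5:**
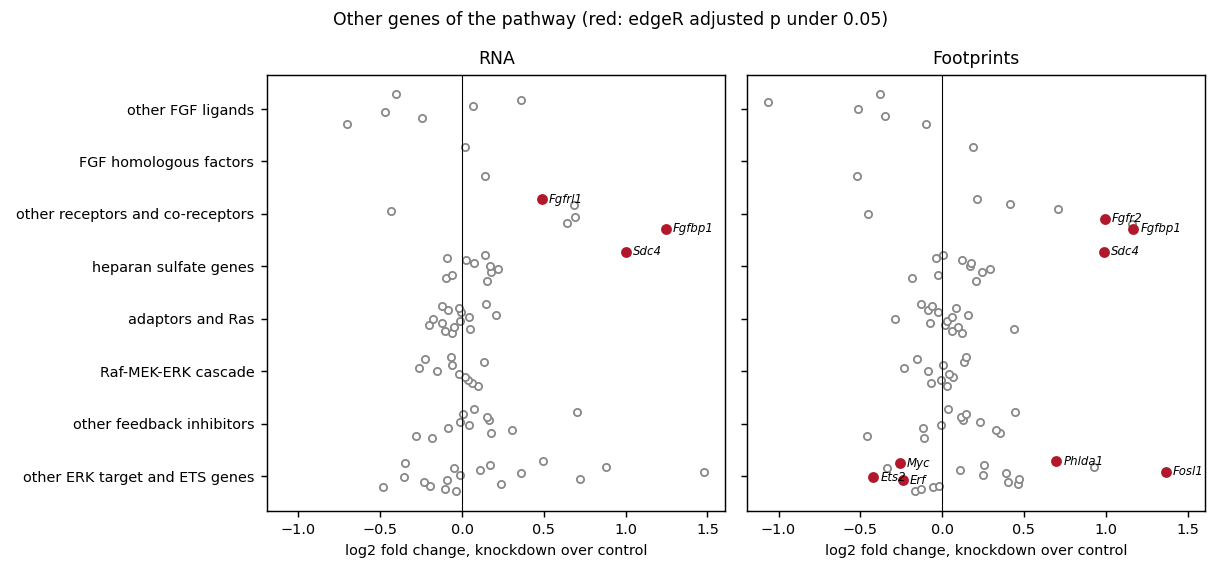
Log2 fold change (knockdown over control) of each tested gene of the 8 pathway lists in RNA and footprints, 1 point per gene, red with its name where the edgeR adjusted p is under 0.05. Red points are 3 in RNA, all right of 0, and 8 in footprints, 5 right and 3 left of 0.

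The genes whose values lay nearest to those of the 4 called members were sought among those averaging 20 CPM or more in both assays. The measure was the root mean square difference between log2 deviations from the control mean over the 12 libraries, which share 6 lysates. For Fgf4 these included Mybl2 (0.0629) and Itpk1 (0.0643), where the median over the 6116 genes compared was 0.297. For Fgf15 they included Slc37a1 (0.108) and Epb4.1l4a (0.118), and the median was 0.588. For Dusp4 they were Plaur (0.119), Pla2g7 (0.159) and Pxdn (0.166), with a median of 0.519. For Spry4 they were Gm7325 (0.0736), Trim8 (0.0736) and Zfp296 (0.0774), with a median of 0.308. None of these genes is a member. They were picked as the nearest, so their lying below the median follows from the choice.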

How the data were processed

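Per the labels' protocols, RNA-seq used 40 to 60 nt fragments and footprints were cut out near 30 nt, from the same lysates. The deposited values are raw read counts for each gene symbol. Per the submitters' processing notes, the tools were STAR and HTSeq and the build mm10; versions, annotation and strand setting: not given in the sources used here. Reads on no feature (31.2% to 33.4% of unique alignments in RNA, 57.5% to 63.3% in footprints) and ambiguous reads (at most 0.206%) stayed out of library sizes and tests. No pair of libraries within a condition was a duplicate (chi-square per degree of freedom 3.88 to 27.2).

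Each assay was fitted over all genes with the quasi-likelihood test of edgeR 4.0.16 (R 4.3.3, limma 3.58.1), TMM factors (RNA 0.984 to 1.04, footprints 0.988 to 1.02), filterByExpr (minimum count 10) and Benjamini-Hochberg adjustment, with calls at an adjusted p under 0.05. Standard errors were derived from F. The test of translational efficiency was the interaction in 1 model over 12 libraries, scaled within each assay and without the lysate as a block. The labels state that each lysate was divided, and columns of the 2 tables share names; over 6117 genes the deviations from the group mean of a lysate's RNA and footprints had a Pearson r of 0.266 to 0.713, so the lysates pair the assays. Alternatives were DESeq2 1.42.0, RLE size factors, no low-count filter, total-count CPM, the lysate as a block and leaving out each lysate. The fits were also run on simulated counts, with changes larger than the main log2 fold changes of the members other than Fgf5. Simulated RNA and footprints were drawn independently, unlike those of the lysates here. The outcome was not used as support for any call.

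Members and lists were chosen with earlier results of these data known. Named genes are the 10 members, up to 3 called genes per list and direction by adjusted p in RNA (in footprints where none was called in RNA) with a mean of at least 1 CPM, the 2 most abundant where none was called, and the 3 nearest genes of each called member. Some genes that this rule names are not reported here. Coordinates and promoter sequences come from RefSeq GRCm38.p6. Transcript lengths and protein sequences were not used here.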

Additional observations from a re-analysis of the deposited data

How the results depend on the processing

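With DESeq2, 4 members were called in RNA (1 up, 3 down) and 6 in footprints (3 up, 3 down), against 2 and 3 with edgeR, and without the low-count filter 5 and 6. The share of all genes called rose as well, from 4.8% in RNA and 6.07% in footprints to 8.61% and 9.04% with DESeq2 and 5.74% and 7.42% without the filter. Of the pathway lists, DESeq2 called 12 genes in RNA (9 up, 3 down) and 9 in footprints (4 up, 5 down), and without the filter 9 were called in RNA and 14 in footprints, against 3 and 8. With single lysates left out, 0 to 5 members were called in each assay, and 0 to 8 pathway genes in RNA and 0 to 13 in footprints; the highest counts came without siKrr1 C, and over all genes the share called ran from 0.8% to 9.09% in RNA and from 0.976% to 9.91% in footprints. Fits with a lysate left out rest on 2 libraries in 1 group. RLE size factors left these counts as they were, and total-count CPM gave 5 and 6 members without overlap in RNA and footprints, against 6 and 5.

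Among the members, directions changed in values near 0 that were not called: leaving out 1 lysate, Etv4 ran from -0.031 to 0.10 in RNA and -0.093 to 0.0049 in footprints, Etv5 footprints from -0.094 to 0.022, and the translational efficiency of Fgf15 from -0.14 to 0.067, Dusp4 from -0.056 to 0.12 and Dusp6 from -0.011 to 0.066. With the lysate as a replicate block, 0 of 10 members were called in translational efficiency, as without it, while over all genes the block gave 8 up and 1 down against 0 without it. Fgf5 had at most 19 counts per library, and without siKrr1 D its RNA value moved from -1.21 to -2.89.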
